A study of Homo sapiens with 9 samples.

Results

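PAX6, ISL1, NEFL, NEFM, INA and NES are genes of the neural lineage, and accessible chromatin around them was described in HEK293T, a cell line of human embryonic kidney origin known for neural-like gene expression. Every peak of the 4 deposited ATAC-seq peak lists that touched the body of one of these genes or the 50 kb on either side was taken. The lists held 19, 23, 27 and 22 such peaks, out of 39194 peaks in the control, 50917 in the IGF2BP1 knockout, 60262 in the IGF2BP2 knockout and 44041 in the IGF2BP3 knockout. Peaks with at least 1 bp in common were merged, which gave 28 regions out of 71597 in the whole series.

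ATAC-seq marks open DNA through the insertion of adapters by the Tn5 transposase. IGF2BP1, IGF2BP2 and IGF2BP3 are RNA-binding proteins that attach to messenger RNAs and alter their stability and translation. The labels give 9 libraries, none from treated cells. For the control (WT, with a CRISPR/Cas9 guide that targets no gene) there were 2 libraries, 1 each of batches 2 and 3. The IGF2BP1 gene knockout had 1 library of each of batches 1, 2 and 3. The IGF2BP2 and IGF2BP3 gene knockouts had 2 libraries each, of batches 2 and 3. The knockout lists are written IGF2BP1-KO, IGF2BP2-KO and IGF2BP3-KO below, and unlabelled series of values follow the order control, IGF2BP1-KO, IGF2BP2-KO, IGF2BP3-KO. Every knockout was 1 clone, made by transient transfection of non-integrating plasmids with 3 guides and a GFP marker, so an effect of the genotype and a trait of that clone cannot be told apart. Each group is represented by 1 list of peak positions with no score and no values per library. No spread between replicates could be measured, no test was made, and every difference between lists below is a description of 4 lists. All 3 knockouts were set against the same control list. Read depth is unknown. Median peak widths were 771, 834, 651 and 713 bp in the control and the 3 knockout lists, and list length and peak width both move with depth and with the threshold of the peak caller.

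PAX6 is a paired-box transcription factor that specifies eye, forebrain and neural progenitor cells, and it is read from several alternative starts. ISL1 is a LIM-homeodomain transcription factor of motor and sensory neurons. NEFL and NEFM encode the light and medium neurofilament subunits and INA encodes alpha-internexin, and these polymerize into the intermediate filaments of axons. NES encodes nestin, the intermediate filament of neural progenitor cells. In many non-neuronal cells, neuronal genes are held silent by the repressor REST, which binds an element called RE1. An accessible promoter does not by itself mean that a gene is transcribed, and no RNA was analysed here.

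The bases just before the starts of ISL1, INA, NES and 2 of the PAX6 starts are shown to mark which bases the peaks cover, from ISL1, covered throughout in every list, to the PAX6 starts, covered in some lists alone. Sequences are those of the RefSeq promoter table (GRCh38.p14), printed in the direction of the gene and ending at the base before the start. It matched 4 of the 6 genes, with 12 start windows. For the first 3, capitals mark bases inside a peak in all 4 lists. For the PAX6 start at 31812720, capitals mark bases inside a control peak, and for the PAX6 start at 31809959 they mark bases inside an IGF2BP3-KO peak.
ISL1, chr5:51383198-51383447, plus strand: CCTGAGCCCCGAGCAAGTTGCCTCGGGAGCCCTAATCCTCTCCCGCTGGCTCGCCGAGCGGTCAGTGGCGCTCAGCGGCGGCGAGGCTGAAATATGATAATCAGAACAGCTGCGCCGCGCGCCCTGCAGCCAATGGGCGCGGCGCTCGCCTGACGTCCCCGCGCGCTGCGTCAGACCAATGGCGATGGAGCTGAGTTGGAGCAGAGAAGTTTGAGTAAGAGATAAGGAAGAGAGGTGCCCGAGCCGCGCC
INA, chr10:103276888-103277137, plus strand: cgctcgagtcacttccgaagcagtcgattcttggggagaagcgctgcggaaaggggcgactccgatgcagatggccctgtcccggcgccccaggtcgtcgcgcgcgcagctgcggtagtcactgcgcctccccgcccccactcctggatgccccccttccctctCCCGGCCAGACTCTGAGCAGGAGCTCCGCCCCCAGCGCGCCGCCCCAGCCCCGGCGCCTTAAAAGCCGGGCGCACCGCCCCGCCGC
NES, chr1:156677408-156677657, minus strand: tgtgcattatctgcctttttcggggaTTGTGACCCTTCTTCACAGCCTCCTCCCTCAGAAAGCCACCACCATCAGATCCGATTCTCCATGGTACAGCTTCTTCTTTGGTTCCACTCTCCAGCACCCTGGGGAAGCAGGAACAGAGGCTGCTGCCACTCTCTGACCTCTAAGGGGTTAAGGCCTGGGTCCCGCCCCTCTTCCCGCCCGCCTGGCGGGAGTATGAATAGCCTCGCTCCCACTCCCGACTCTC
PAX6 start at 31812720, chr11:31812721-31812970, minus strand: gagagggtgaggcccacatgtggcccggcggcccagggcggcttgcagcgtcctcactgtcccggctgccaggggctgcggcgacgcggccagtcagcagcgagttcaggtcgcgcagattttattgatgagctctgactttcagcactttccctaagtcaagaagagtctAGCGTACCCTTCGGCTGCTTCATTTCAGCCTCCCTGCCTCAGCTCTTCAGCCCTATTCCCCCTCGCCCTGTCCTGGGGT
PAX6 start at 31809959, chr11:31809960-31810209, minus strand: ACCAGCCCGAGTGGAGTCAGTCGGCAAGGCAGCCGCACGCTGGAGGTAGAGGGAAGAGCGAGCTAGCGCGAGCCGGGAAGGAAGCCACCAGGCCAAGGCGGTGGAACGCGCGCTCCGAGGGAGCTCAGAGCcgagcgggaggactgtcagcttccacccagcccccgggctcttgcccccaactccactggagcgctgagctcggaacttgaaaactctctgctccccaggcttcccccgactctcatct

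All 250 bases before the ISL1 start lay inside a peak in every list. Before the INA start, 86 of the 250 bases did, those nearest to the start, and before the NES start 224 did. Over the full windows of 300 bp (250 before to 50 after the start), the ISL1 window held 36 CpG dinucleotides, the INA window 35 and the NES window 14. The median of all 35116 windows in the table was 14, so NES stood at that median and the other two at percentiles 88.0 and 86.6. The control peak covered 129 of the 300 bases at the PAX6 start at 31812720, where no knockout list had any base in a peak. At the PAX6 start at 31809959, peaks covered 126 bases in IGF2BP1-KO and 131 in IGF2BP3-KO, and 0 in the control and IGF2BP2-KO. The remaining 7 PAX6 start windows held no base of a peak in any list.

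Both strands of the 12 windows, 9 of them at PAX6 starts, were searched for 6 short motifs. NEFL and NEFM had no window and were not searched. The GC box GGGCGG was found in 8 windows, most of them at PAX6 starts and the others of INA and NES, and in 45.0% of all windows of the table. CCAAT was found in 4 windows, of ISL1 and PAX6 (34.6% of all windows). In ISL1 its matches began at positions -121 and -75 from the start, both inside the capitals above. The E-box CAGCTG, a sequence bound by basic helix-loop-helix factors, began at position -144 from the start in both ISL1 and INA (17.9% of all windows). It lay inside the peaks of all 4 lists in ISL1, and in INA it lay in the stretch that only the IGF2BP1-KO peak reached. TATAAA and the left and right parts of RE1, TTCAGCACC and GGACAGC, had 0 matches in the 12 windows, against 11.5%, 0.376% and 6.03% of all windows. Only exact matches counted, and with such low shares and 12 windows, no lack of RE1 at these genes is read from this. None of the motifs searched contains another.

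Promoter peaks are described first. A gene was counted as having one when a peak lay within 1 kb of any of its starts in the table. NEFL and NEFM have no start in the table used here, so both ends of these genes were tried, and their peaks lay at the ends that are known as their 5′ ends. All 6 genes had a promoter peak in all 4 lists. Among 20037 protein-coding genes, 66.6% had one in the control, 68.7%, 68.2% and 67.5% had one in the knockout lists, and 64.2% had one in all 4 lists. At this setting, promoter peaks at the 6 genes neither appeared nor vanished in any knockout, where the background of genes with a difference in any knockout was 6.75%. With 6 genes and that background, no stability particular to them is read from this. Under narrower settings given below, PAX6 lacked a promoter peak in IGF2BP2-KO and NES lacked one in IGF2BP3-KO.

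**Figure D1:**
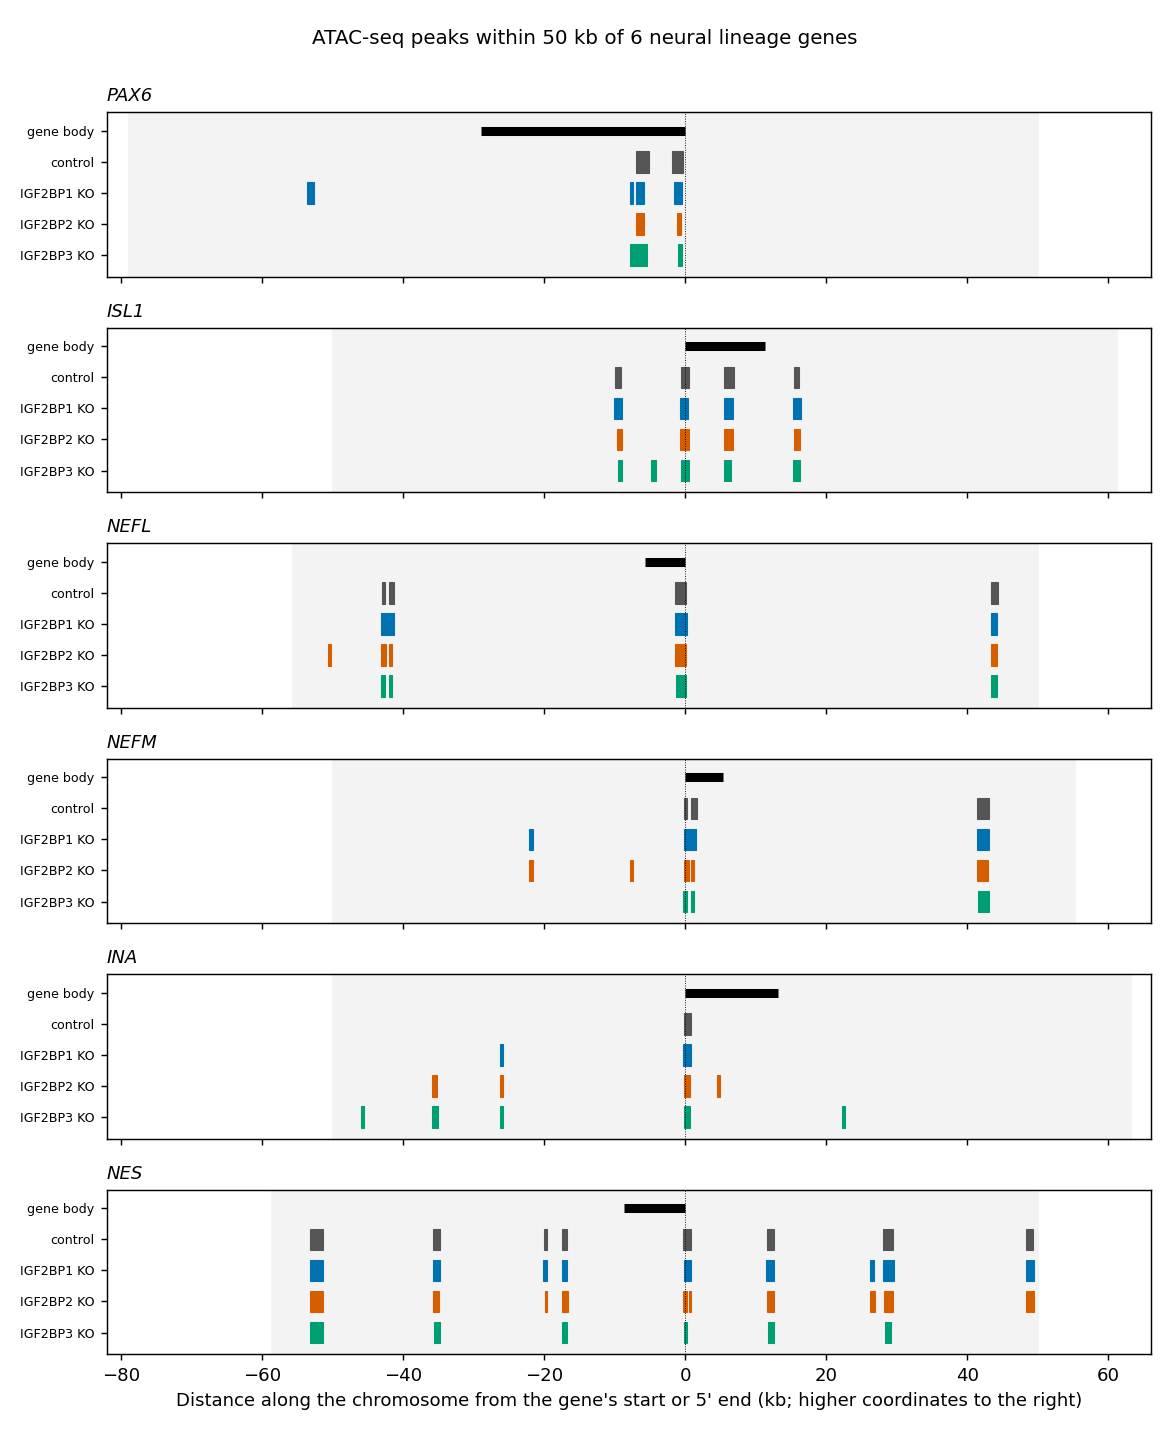
Peaks of the 4 lists (coloured bars, 1 row per list) along the window of each gene, with the gene body as a black bar and the 50 kb on either side shaded; the x axis is the distance in kb from the gene's outermost start (NEFL and NEFM, 5′ end), with higher coordinates to the right. All 6 genes have bars at or next to 0 in all 4 rows, whereas INA has no other bar in the control row and NES has 6 to 9 regions in every row.

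ISL1 and NEFL had the most even promoter peaks. At ISL1 on chromosome 5, the control peak spanned 51382797 to 51384013 (1217 bp), and the 3 knockout peaks measured 1221, 1254 and 1179 bp. The peaks also covered the start of ISL1-DT, a noncoding RNA gene read in the opposite direction. At NEFL on chromosome 8, the control peak spanned 24955175 to 24956797 (1623 bp), and the knockout peaks measured 1673, 1598 and 1524 bp in the same order. The widest list exceeded the narrowest by 1.06 times at ISL1 and by 1.1 times at NEFL. At INA on chromosome 10, the control peak spanned 103277052 to 103278030 (979 bp). The IGF2BP1-KO peak there was 1051 bp and began at 103276864, ahead of the other lists, and the IGF2BP2-KO and IGF2BP3-KO peaks were 809 and 794 bp. At each of these 3 promoters the widest list exceeded the narrowest by no more than 1.32 times.

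The NEFM promoter was split in 3 of the 4 lists. In the control it consisted of peaks of 391 bp (24913610 to 24914000) and 744 bp (24914642 to 24915385) on chromosome 8. In IGF2BP2-KO the pair measured 718 and 478 bp, and in IGF2BP3-KO 500 and 467 bp. IGF2BP1-KO had 1 unbroken peak of 1725 bp over the same stretch, from 24913555 to 24915279, at width percentile 95.3 of its list. It covered 1.52 times the bases of the control pair. Of 29686 regions held by all 4 lists, 9.32% covered at least 1.5 times the control bases in IGF2BP1-KO, and the median ratio was 1.09. For the 12106 of these within 1 kb of the start of a protein-coding gene, the share was 4.91% and the median 1.07.

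The NES promoter was narrowest in IGF2BP3-KO. On chromosome 1, the control peak spanned 156677166 to 156678276 (1111 bp) and the IGF2BP1-KO peak 156677229 to 156678287 (1059 bp). IGF2BP2-KO had 2 peaks, of 572 and 367 bp, with a gap inside the stretch that the control peak covered. IGF2BP3-KO had the part at the start alone, 156677187 to 156677631 (445 bp), which is 0.401 of the control width. That ratio stood at percentile 0.45 of the 29686 regions held by all 4 lists, where the median in IGF2BP3-KO was 0.979. The median of those at the start of a protein-coding gene was 0.996. The base that begins transcription lay inside the peak in every list, and most of the control bases missing from IGF2BP3-KO lie upstream of the start, since NES is on the minus strand. With peaks of at least 500 bp alone, NES had no promoter peak in IGF2BP3-KO and kept one in the other 3 lists.

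PAX6 has 9 starts in the table, and of these only the start at 31812720 lay inside a peak, in the control alone. The region next to the outermost start, at 31817961 on chromosome 11, was held by all 4 lists but ended 363 to 605 bp inside the gene. It measured 1433 bp in the control (31816166 to 31817598), 1168 bp in IGF2BP1-KO, 586 bp in IGF2BP2-KO and 644 bp in IGF2BP3-KO. All 3 knockouts were narrower than the control there, at 0.815, 0.409 and 0.449 of its width. These ratios stood at percentiles 3.62, 0.322 and 0.814 among all regions held by 4 lists. The region also covers a start of PAX6-AS1, an antisense noncoding gene.

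The second PAX6 region, around the inner starts at 31812720 and 31809959, differed in where it lay more than in whether it was there. The control peak spanned 31810991 to 31812799 (1809 bp) and took in the start at 31812720. In IGF2BP2-KO it was shorter, from 31811023 to 31812144 (1122 bp, 0.62 of the control), and ended 576 bp short of that start. IGF2BP1-KO had peaks of 507 bp (31810084 to 31810590) and 1095 bp (31810986 to 31812080). IGF2BP3-KO had 1 peak from 31810079 to 31812566 (2488 bp), at width percentile 99.8 of its list and 1.38 times the control. That peak ended 154 bp short of the start at 31812720 and reached to within 120 bp of the start at 31809959, from which the control peak was 1032 bp away. When the promoter was narrowed to the 250 bp before and 50 bp after a start, PAX6 had no promoter peak in IGF2BP2-KO, where 64.3% of protein-coding genes had one, and the other 3 lists kept one. The share of all peaks that lay on chromosome 11 was 4.77% in the control and 3.39% in IGF2BP2-KO, against 4.68 and 4.85% in the other knockouts. Its part in the narrower PAX6 peaks of IGF2BP2-KO was not tested.

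**Figure D2:**
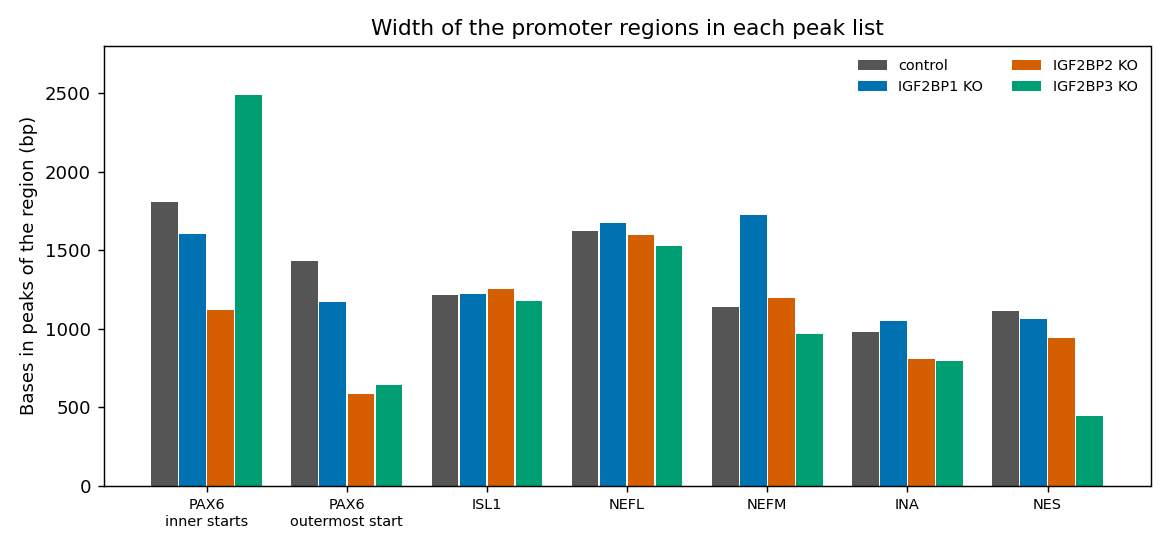
Bases in peaks (bp, y axis) of the 7 promoter regions of the 6 genes in each of the 4 lists (coloured bars, 1 value per list, no replicates). ISL1 and NEFL have bars of nearly equal height, IGF2BP3-KO is lowest at NES (445 bp) and highest at the inner PAX6 starts (2488 bp), and IGF2BP1-KO is highest at NEFM (1725 bp).

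The number of regions per window, promoters included, differed widely between the 6 genes. NES had 9 regions in its window, or 8.28 per 100 kb, at percentile 93.8 of protein-coding genes, whose median was 3.61. PAX6 had 3 regions over a longer window, or 2.33 per 100 kb, at percentile 26.7. INA (6 regions), ISL1 (5), NEFL (4) and NEFM (4) lay between, at 5.3, 4.49, 3.79 and 3.8 per 100 kb. The windows of NEFL and NEFM overlap, since these genes lie 31861 bp apart, and no list had a peak between them.

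Much of what was open near NES belonged to neighbouring genes. A region at the start of BCAN, which encodes the brain proteoglycan brevican, lay 34.7 kb from the NES start and measured 909, 970, 959 and 931 bp in the control and the 3 knockout lists. Another covered the start of CRABP2, a retinoic acid-binding protein, with 1475, 1530, 1333 and 850 bp. The widest region of the window lay in HAPLN2, which encodes a link protein of brain extracellular matrix, and measured 1816, 1811, 1848 and 1829 bp. Its width hardly differed between the lists, whereas the CRABP2 region was at 0.576 of the control in IGF2BP3-KO. A region on no annotated gene, from 156689048 to 156689991 in the control and 11.5 kb from the NES start, was held by all 4 lists at 944, 1087, 928 and 890 bp. A region at the start or end of BCAN-AS2 was also in all 4 lists (760, 728, 868 and 673 bp). Within the NES body, the promoter was the only region in any list.

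Near NES, 3 regions were not in every list. The widest, in ISG20L2 at 48.3 kb from the NES start, measured 1067 bp in the control, 1084 bp in IGF2BP1-KO and 839 bp in 2 peaks of IGF2BP2-KO, and IGF2BP3-KO had none. A narrow region in BCAN (499, 561 and 349 bp in the control, IGF2BP1-KO and IGF2BP2-KO) was likewise absent from IGF2BP3-KO. A region in CRABP2 was present in the IGF2BP1 (524 bp) and IGF2BP2 (614 bp) knockouts alone. IGF2BP3-KO thus held 6 of the 9 regions, against 8 in the control and 9 in each of the other knockouts. It covered 5618 bp of the window against 8581 bp in the control. Of all regions within 50 kb of a protein-coding gene, 10.3% were in the control and not in IGF2BP3-KO. Nothing particular to NES is read from 9 regions.

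ISL1 kept 4 of its 5 regions in all lists. One lay inside the gene, 5.4 kb from the start, and was the widest of the window in the control (51388900 to 51390319, 1420 bp), with 1330, 1282 and 1046 bp in the 3 knockouts. Another lay in ISL1-DT, 9.0 kb from the ISL1 start. It measured 891 bp in the control, 1055 bp in IGF2BP1-KO, 639 bp in IGF2BP2-KO and 505 bp in IGF2BP3-KO. The region beyond the other end of the gene was wider in all 3 knockouts (1159, 901 and 1032 bp) than in the control (721 bp), or 1.61, 1.25 and 1.43 times. IGF2BP3-KO alone had a peak of 659 bp in ISL1-DT, at 51378659 to 51379317.

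Around INA the control list had the promoter peak and nothing else, so each of the other 5 regions was a gain in at least 1 knockout. One of them, at 103250907 to 103251269 and 25.9 kb from the INA start, was in all 3 knockout lists with nearly the same narrow extent of 346, 345 and 360 bp. These widths stood at percentiles 1.26, 7.12 and 6.68 of their lists. A wider one 35.1 kb from the start was in the IGF2BP2 (596 bp) and IGF2BP3 (731 bp) knockouts. A peak of 352 bp in the INA body was in IGF2BP2-KO alone, and peaks of 375 and 451 bp were in IGF2BP3-KO alone. The number of INA regions was 1 in the control, 2 in IGF2BP1-KO, 4 in IGF2BP2-KO and 5 in IGF2BP3-KO. Of all regions within 50 kb of a protein-coding gene but not within 1 kb of a start, 50.9% were absent from the control. Nothing particular to INA is read from these counts.

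The neurofilament pair on chromosome 8 had few other sites. A region in the noncoding gene LOC105379330, 43.3 kb from NEFL, was in all 4 lists at 1001, 916, 915 and 846 bp. On the other side, 21.5 kb from NEFM, a region was present in the IGF2BP1 (565 bp) and IGF2BP2 (636 bp) knockouts alone. A peak of 482 bp closer to NEFM was in IGF2BP2-KO alone. Near PAX6, the one region away from the promoters was a peak of 934 bp in IGF2BP1-KO alone, from 31764372 to 31765305 inside ELP4, a neighbouring gene whose introns are known to hold PAX6 enhancers.

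**Figure D3:**
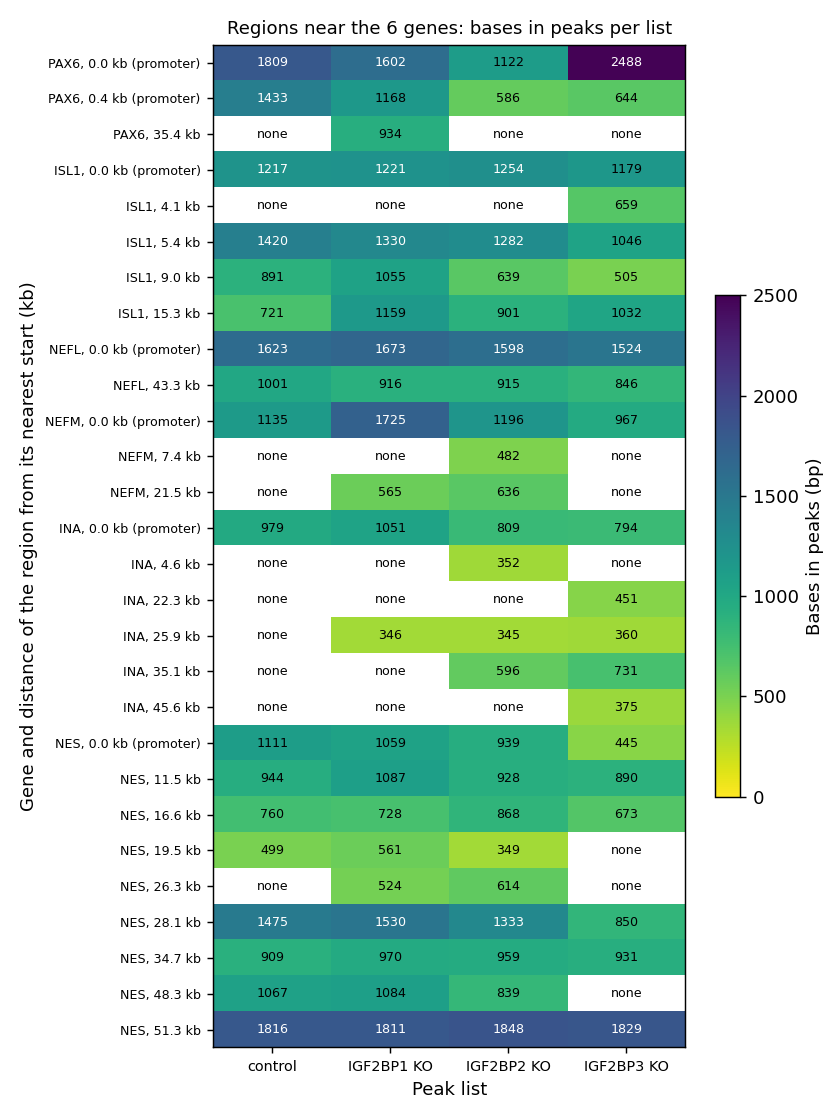
Bases in peaks (bp, colour and printed value) of each of the 28 regions (rows, named by gene and distance from its nearest start in kb) in the 4 lists (columns); white cells marked none had no peak. Promoter rows are filled in all 4 columns, and the empty cells are most frequent in the control column and in the INA rows.

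Counted over the 28 regions, 16 (57.1%) were held by all 4 lists. The background was 46.7% of 54498 regions within 50 kb of a protein-coding gene, and 41.5% of all regions. IGF2BP1-KO gained 4 regions against the control (14.3%, background 20.6%) and lost 0 (background 5.53%). IGF2BP2-KO gained 6 (21.4%, background 28.9%) and lost 0 (background 4.96%), and IGF2BP3-KO gained 5 (17.9%, background 14.3%) and lost 2 (7.14%, background 10.3%). Nothing particular to the 6 genes is read from these shares. The 2 losses were both near NES, and INA had 5 of the 10 regions that the control list lacked.

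None of the 10 regions that the control lacked had a peak of 1 kb or more or lay at the start of a protein-coding gene. Among the 9 regions within 1 kb of the start of any protein-coding gene, 9 were in all 4 lists (background 86.2%). Of the other 19, 10 were absent from the control (52.6%, background 50.9%). The control lacked 5 of 5 of these whose widest peak was under 500 bp (background 80.4%), 5 of 7 at 500 bp to 1 kb (background 47.6%) and 0 of 7 at 1 kb or more (background 24.4%). The control list holds 39194 peaks, so shortening every list to its 39194 widest peaks cut the knockout lists alone. The narrowest peaks kept in the 3 knockouts were 612, 541 and 401 bp. The gain then left in IGF2BP1-KO was the ELP4 region. In IGF2BP2-KO, the gains left were the regions 35.1 kb from INA, 21.5 kb from NEFM and in CRABP2. In IGF2BP3-KO, the regions left were those in ISL1-DT and at 35.1 and 22.3 kb from INA. The narrow INA region found in all 3 knockouts lay below these widths, so it was then in no list by construction.

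Width, counted as the bases in peaks of a region without gaps between peaks, was compared over the 16 regions in all 4 lists. The median ratio to the control was 1.02 in IGF2BP1-KO, 0.949 in IGF2BP2-KO and 0.869 in IGF2BP3-KO, where the medians of all 29686 such regions were 1.09, 0.997 and 0.979. At least 1.5 times narrower than the control were 0 of 16 regions in IGF2BP1-KO (background 0.758%). In IGF2BP2-KO 2 of 16 were (background 4.78%), and in IGF2BP3-KO 4 of 16 were (background 7.3%). For regions within 1 kb of the start of a protein-coding gene, these backgrounds were 0.446%, 3.51% and 3.42%. The pair in IGF2BP2-KO were both PAX6 promoter regions. Those in IGF2BP3-KO were the outermost PAX6 promoter, the NES promoter, CRABP2 and the ISL1-DT region. At least 1.5 times wider were 2 of 16 regions in IGF2BP1-KO, the NEFM promoter and the one beyond ISL1 (background 9.32%). There were 0 in IGF2BP2-KO (background 3.87%) and IGF2BP3-KO (background 3.66%). At NEFM the control had 2 peaks with a gap, from 24913610 to 24915385. The single IGF2BP1-KO peak, from 24913555 to 24915279, covered that gap and did not reach over a longer stretch. The fold of 1.5 was chosen after the widths were seen.

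Promoter peaks of other neural genes were counted beside those of all protein-coding genes, of which 64.2% had one in all 4 lists. Of 14 factors of neural progenitor cells, 9 had a promoter peak in all 4 lists, among them SOX2, SOX3, PAX3, NKX2-2, EMX2 and POU3F2, and SOX1, OTX2 and HES5 had none in any. ZIC1 had one in the 3 knockouts (1087, 1095 and 889 bp) and none in the control, and PAX7 had one in IGF2BP3-KO alone (517 bp). Of 14 proneural and neuronal transcription factors, 9 had one in all lists, including NEUROG1, NEUROG2, ISL2 and POU4F1. NEUROD1, a neuronal differentiation factor, lacked one in IGF2BP3-KO, and its control peak was 544 bp wide. Presence differed between lists in 2 of the 14 progenitor factors and 3 of the 14 neuronal factors. It also differed in 3 of the 14 genes of neuronal structure and synapses described next. Of all protein-coding genes, 6.75% differed, and nothing particular is read from lists of this size.

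Among 14 genes of neuronal structure and synapses, 8 had a promoter peak in all lists, such as GAP43, SYP and CHGA, and 3 (DCX, STMN2 and ELAVL4) had none in any. TUBB3, a neuronal tubulin, lacked one in IGF2BP2-KO. MAP2, a microtubule-associated protein of dendrites, had one in the 3 knockouts (452, 467 and 579 bp) and not in the control, and SYN1 had one of 295 bp in the control and 293 bp in IGF2BP3-KO alone. Of 10 other intermediate filament genes, 5 had a promoter peak in all 4 lists (background 64.2%). NEFH, the heavy neurofilament subunit, and PRPH, DES and GFAP had no promoter peak in any list. VIM, SYNM, KRT18, LMNA and LMNB1 had one in all 4, and KRT8 had one in IGF2BP3-KO alone (766 bp). Of 8 genes of the REST complex, 6 had one in all lists, REST itself at 1782, 1981, 1982 and 1602 bp. RCOR2 had none, and EHMT2 lacked one in IGF2BP3-KO.

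The labelled origin was checked in the same way. Of 11 kidney genes, PAX2, WT1, SIX2, LHX1 and SALL1 had promoter peaks in all 4 lists, and PAX8, CDH16 and UMOD were among those with none in any. EYA1 had one in IGF2BP3-KO alone, and NPHS1 had one in IGF2BP1-KO and IGF2BP2-KO. One of 6 blood genes, 2 of 5 muscle genes and 1 of 5 liver genes had one in all 4 lists, and CD3E had one in IGF2BP1-KO alone (450 bp). In the control, the share with a promoter peak was 64.3% of the progenitor factors, 78.6% of the neuronal factors, 71.4% of the structural and synaptic genes, 50% of the other intermediate filament genes, 87.5% of the REST complex genes, 45.5% of the kidney genes, 16.7% of the blood genes, 40.0% of the muscle genes and 20.0% of the liver genes. The control share of all protein-coding genes was 66.6%, which lies above those of the progenitor factors and the filament, kidney, blood, muscle and liver genes. With 5 to 14 genes a list, nothing particular to a list is read from these shares. Some of these genes have no start in the table, so a peak at either end of them counted. Among the genes named with a peak, these were KRT18, LHX1, SALL1, EYA1 and CD3E. The same holds for SPI1 (blood), MYOD1 (muscle) and APOA1 (liver), which had a peak in all 4 lists.

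**Figure D4:**
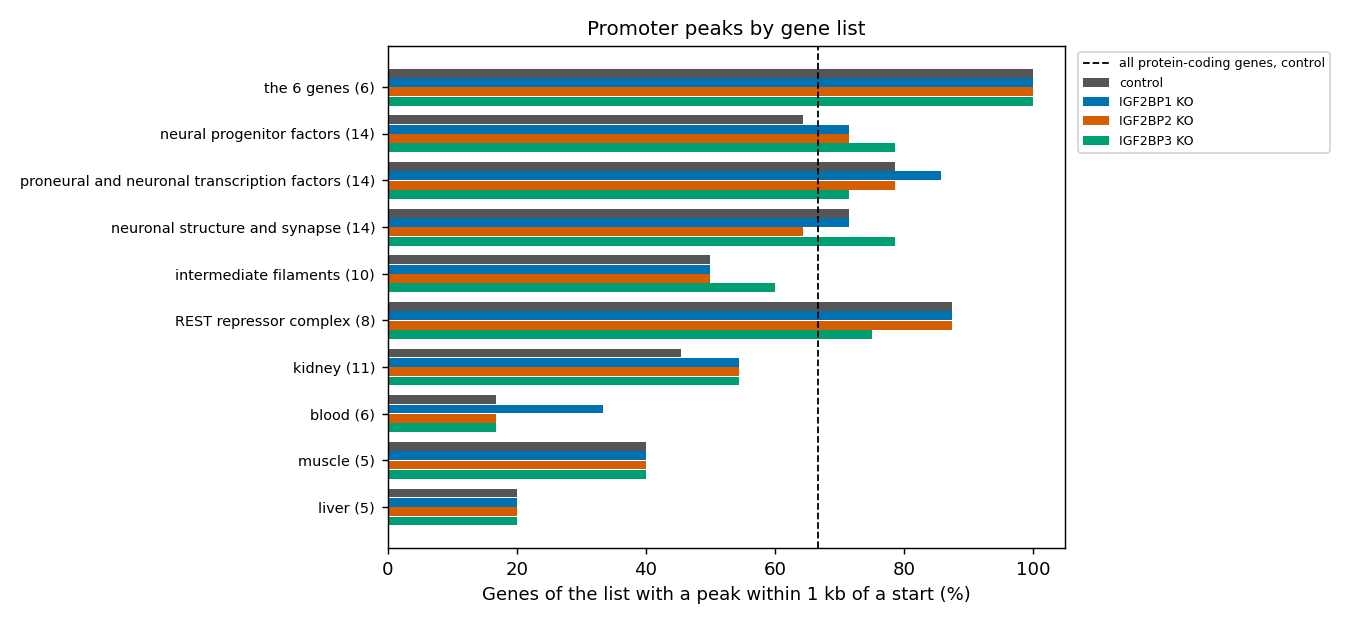
Share of genes with a peak within 1 kb of a start (%, x axis) in each of the 4 lists (coloured bars) for 10 gene lists, with the number of genes in parentheses; the dashed line is the control share of all protein-coding genes. The 6 genes stand at 100% in all 4 lists, and the intermediate filament, kidney, blood, muscle and liver lists stand left of the dashed line (66.6%) in all 4, as do the progenitor list in the control (64.3%) and the structural and synaptic list in IGF2BP2-KO (64.3%).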

How the data were processed

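Accessible chromatin was measured by ATAC-seq in 9 libraries of HEK293T cells. Per the labels' protocols, lysis and transposition followed Omni-ATAC. The submitters' processing notes name fastp 0.24.1, BWA 0.7.17, MACS2 (given there as version 3.0.0) and bedtools, and the build GRCh38, with no role or order. The authors deposited 1 list of peak starts and ends per group (positions, no other value). Thresholds and how libraries were combined are not given in the sources used here. Starts were moved to count from 1.

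Gene positions came from a RefSeq table and starts from the RefSeq promoter table (both GRCh38.p14). Of 20037 protein-coding genes, those without a listed start were tried at both ends. Overlaps were computed in Python 3.11.15 and tested on simulated lists. Alternatives covered the window, the overlap rule, shortened lists, a minimum width and the promoter window. The 6 genes and the gene lists were chosen with earlier results of these data known. The rule named promoter regions, the 3 widest and the widest differing region of each gene, and listed genes whose promoter peak differed between control and any knockout. Some listed genes are not reported here by name. The other regions and genes were named after their values were seen. Exons, introns and UTRs were not assigned.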

Additional observations from a re-analysis of the deposited data

How the results depend on the processing

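No paired analysis was possible because each group is 1 list in which its libraries are combined, and for the same reason no library was left out. Each list stands for 1 group. Of 114 recomputed values, 80 stayed within 1.5 times of those reported. Values below are in the order control, IGF2BP1-KO, IGF2BP2-KO, IGF2BP3-KO where 4 are given, and in the order of the knockouts where 3 are given. The number of genes with a promoter peak moved by no more than 1.5 times under the 5 alternatives run, and was 4 of 6 in each knockout with random peaks. The overlap rules moved no count of regions by over 1.5 times.

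Windows of 100 kb gave 35, 41, 47 and 39 peaks over 37948, 42849, 38903 and 35793 bp, and 48 regions with 30 in all 4 lists. They also gave 1 loss in IGF2BP1-KO, and 8 gains and 4 losses in IGF2BP3-KO. Windows of 20 kb gave 14 and 17 peaks over 15419 and 13305 bp in IGF2BP1-KO and IGF2BP2-KO, and 17 regions. Gains were then 0, 2 and 2, and IGF2BP3-KO lost 1. With the 39194 widest peaks, gains were 1, 3 and 3, and losses were 1 in IGF2BP1-KO and 2 in IGF2BP2-KO. With 39194 random peaks (1 draw), 7 regions were in all 4 lists, losses were 5, 6 and 5, and IGF2BP2-KO covered 14073 bp. With peaks of at least 500 bp, gains were 3 in IGF2BP2-KO and 2 in IGF2BP3-KO. By construction, a narrower window cannot hold more regions and a shortened list cannot hold more peaks. The number of merged regions need not fall, and it stayed at 28 with random peaks. Both shortenings to 39194 peaks left the control list whole and removed knockout peaks alone, so the added losses there also follow by construction. The cause of the other shifts was not tested. Depth is unknown.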
